A study of Mus musculus with 2 samples.

Results

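The constitutive subunits of the proteasome were examined in mouse embryonic fibroblasts with and without the deubiquitinase gene Usp16. Members were chosen by name alone: a gene row belonged if its symbol was Psma, Psmb, Psmc or Psmd followed only by a number, and the inducible catalytic subunits Psmb8, Psmb9 and Psmb10 were left out. The rule found 36 of the 51912 gene rows, 16 for the core particle (8 Psma and 8 Psmb genes) and 20 for the regulatory particle (6 Psmc and 14 Psmd genes). The data were 2 RNA-seq libraries, 1 per group, from embryonic fibroblast lines (MEFs) on a C57BL/6 background. The KS line had both Usp16 alleles intact (Usp16+/+), and the UKS line had lost its floxed alleles (Usp16-/-). Both lines were immortalized with SV40T, the viral T antigen that inactivates p53 and the RB proteins, and both were infected with Ad-Cre, an adenovirus that delivers Cre recombinase, so the control cells had met Cre as well. The labels name no clone, embryo or passage for either line. With a single line of each genotype, loss of Usp16 and any other difference between the lines cannot be told apart, no test across samples was possible, and every value below describes these 2 libraries.

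The proteasome degrades proteins that carry ubiquitin chains. Its core particle is a barrel of stacked rings: outer rings of alpha subunits (Psma genes) form the gate, and inner rings of beta subunits (Psmb genes) hold the active sites, with Psmb5, Psmb6 and Psmb7 encoding the catalytic subunits of the constitutive form. The regulatory particle caps the barrel. Its base holds a ring of ATPases (Psmc genes) that unfold substrates, with large scaffold subunits and a ubiquitin receptor, and its lid holds the deubiquitinase encoded by Psmd14, which cuts ubiquitin chains off as substrates enter. Fibroblasts, like nearly all cells, make these subunits all the time and in matched amounts, and cytokines can replace the catalytic subunits by inducible forms.

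Levels are in CPM, counts relative to the library total after TMM scaling. Deposited counts summed to 26561637 in KS and 23205746 in UKS. A gene counted as measured when its CPM averaged 1 or more. Its difference is log2((UKS + 1)/(KS + 1)) on CPM, where the added 1 makes differences of weakly expressed genes look smaller. Folds are ratios of CPM with nothing added. Brackets after a fold hold its exact 95% interval from the counts, which covers counting error only. Usp16 itself had 1195 counts in KS and 459 in UKS (45.3 and 19.7 CPM), lower by 2.303-fold [2.07 to 2.57], so its transcript was reduced but still present in the library labelled as deleted. Counts per gene do not separate deleted from retained exons. All 10 fibroblast markers examined had counts in both libraries and summed to 18482 and 20805 CPM. Fn1 made up much of both sums (8995 and 14581 CPM), and 6 of the markers were lower in UKS, among them Thy1 (168 and 35.6 CPM) and Pdgfra (302 and 106 CPM), while Dcn was higher (25.7 and 266 CPM). The part of such differences between the lines in the results below was not tested. The summed levels of 5 blood, 3 endothelial and 3 epithelial markers were 6.21, 1.89 and 0.682 CPM in KS and 4.97, 1.46 and 0.5996 CPM in UKS, and Adgre1, Cd3e and Krt5 had 0 counts in both. Xist, the RNA of the inactive X chromosome, had 1 count in KS and 6998 in UKS, which is 1 way in which the lines differed besides Usp16.

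Most constitutive subunit genes were slightly higher in UKS, and none differed by 2-fold. Of the 36 members 34 were measured, and 29 of these (85.3%) had a log2 ratio above 0, against 51.9% of the 13015 genes measured. The median of the members was 0.32, a 1.24-fold difference, beside 0.03 over all genes. Summed over the measured members, levels came to 4774 CPM in KS and 5613 in UKS, and the members took 0.475% and 0.565% of all counts. Differences were small: 2 members were at least 1.5-fold higher on the log2 scale (Psmd10 and Psmb6; background 15.4% of all genes) and 1 was at least 1.5-fold lower (Psmc6; background 21.1%). At 2-fold the background was 5.81% higher and 10.7% lower, and no measured member passed. In bulk RNA, less transcript per cell and fewer cells with the transcript cannot be told apart. The middle of the members, from the 25th to the 75th percentile, ran from 0.19 to 0.36, while that of all genes ran from −0.47 to 0.41. The call for Psmb6 was at the edge (log2 ratio 0.60), and with DESeq2 size factors or with ratios centred on the median gene 1 member was 1.5-fold higher and 1 lower.

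**Figure D1:**
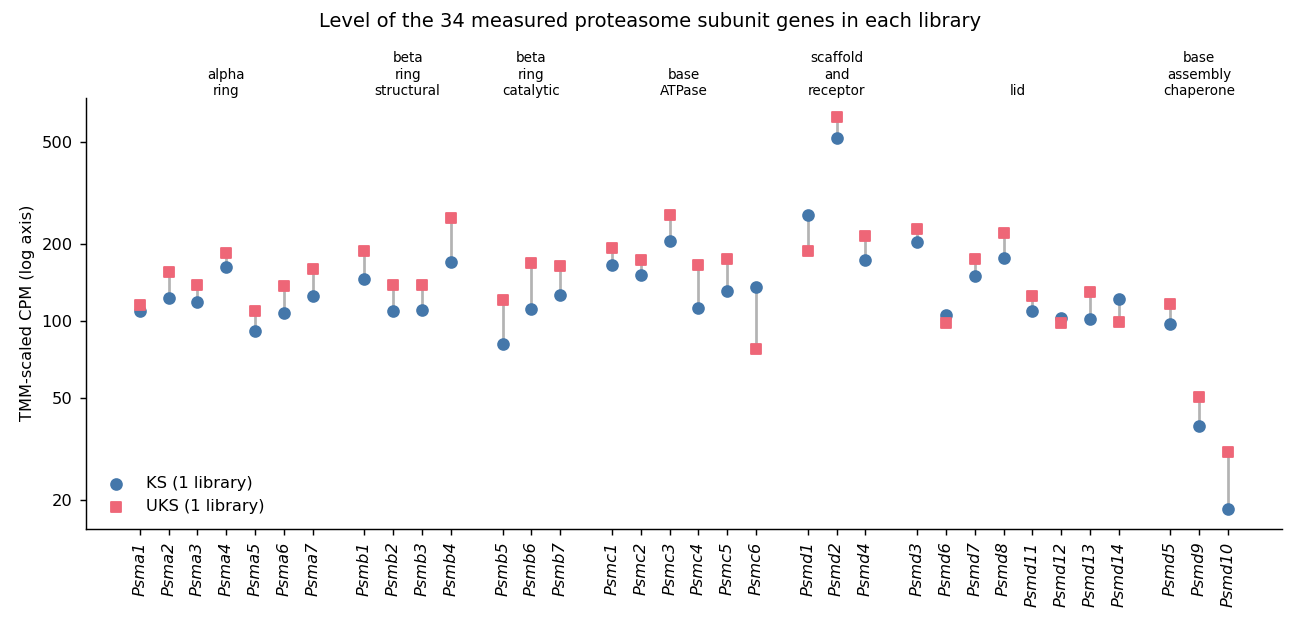
Level of each of the 34 measured subunit genes (TMM-scaled CPM, log axis) in the KS library (circles) and the UKS library (squares), 1 library per group, ordered by role in the particle. Squares lie above circles for 29 genes and below for Psmc6, Psmd1, Psmd6, Psmd12 and Psmd14.

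As counted, the core particle was higher in UKS in all of its 14 measured genes. Their log2 ratios ran from 0.07 to 0.60 with a median of 0.35, and their summed level was 1693 CPM in KS and 2172 CPM in UKS. The 20 regulatory particle genes had a median of 0.23 and a wider range, from −0.79 to 0.71, with 15 above 0 and 5 below. The core median thus stood 0.11 above the regulatory median. All 5 members with a negative ratio as counted (Psmc6, Psmd1, Psmd14, Psmd6 and Psmd12) were regulatory. Once the trend with transcript length and GC content, described below, was removed, 12 core genes lay above 0 and 2 below. The regulatory genes then had 10 above 0 and 10 below. Core genes took 35.5% of the members' counts in KS [35.2 to 35.7, exact binomial interval] and 38.7% in UKS [38.4 to 39.0]. These intervals treat reads as independent molecules, cover counting error only and do not compare the genotypes. Sums weight abundant genes, and Psmd2 alone took 10.9% of the members' counts in KS and 11.1% in UKS.

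**Figure D2:**
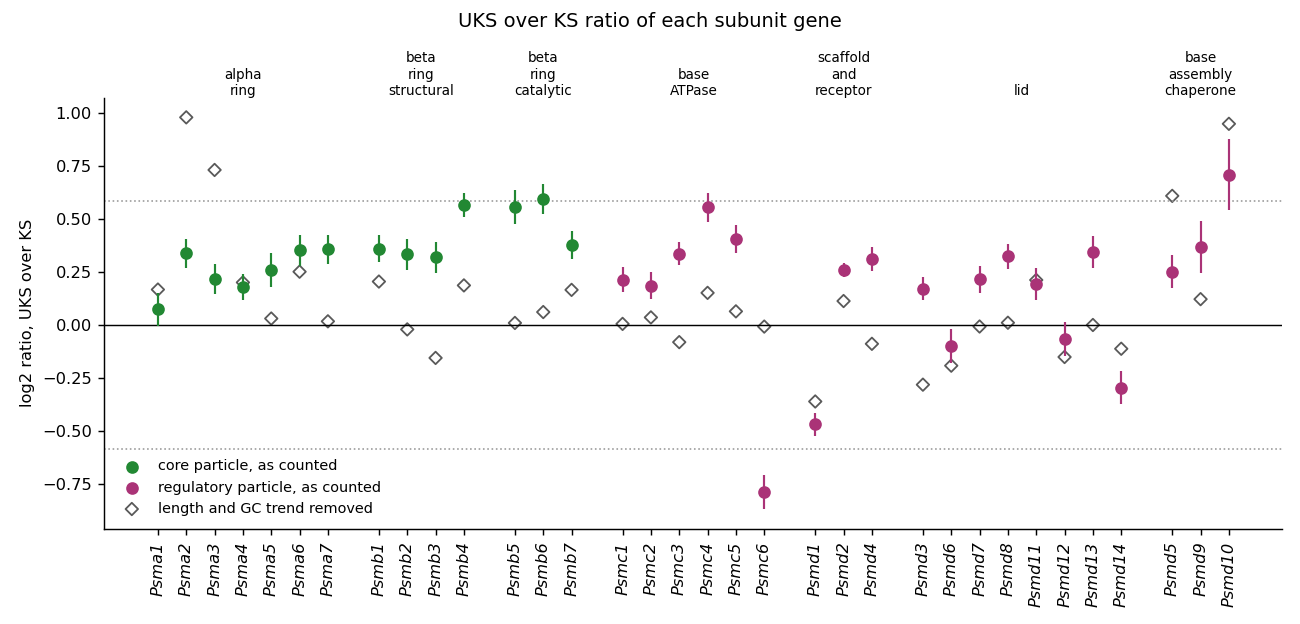
Log2 ratio of UKS over KS for each measured subunit gene by role. Filled points are the values as counted, green for the core and purple for the regulatory particle. Bars have the lengths of the fold's 95% counting interval on the log2 scale, moved to the plotted value, which has 1 added to each level. Open diamonds are the values with the trend with transcript length and GC content removed, and dotted lines mark 1.5-fold. All 14 core genes lie above 0 as counted, 5 regulatory genes lie below, and Psmc6 is lowest at −0.79.

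The alpha ring, which gates the barrel and carries the docking surface for the regulatory particle, had a median log2 ratio of 0.26. Psma1 differed least, at 109 CPM in the first library and 115 in the second, a fold of 1.05 with an interval [0.998 to 1.11] that included equal levels. Psma7 differed most, at 125 and 160 CPM (1.28-fold higher [1.22 to 1.35]), and Psma6 (107 and 137 CPM) and Psma2 (122.5 and 155 CPM) stood close to it. Psma3 (118 and 138 CPM), Psma4 (163 and 185 CPM) and Psma5 (91.6 and 110 CPM) lay between. As counted, the 7 ring genes thus kept within a narrow band of ratios, from 0.07 to 0.36. Psma1 was the one whose level the counts did not separate between the libraries. Once the trend with transcript length and GC content, described below, was subtracted, the band was wide, from 0.02 to 0.98. Psma7 was then lowest and Psma2 highest, and Psma1 stood at 0.17.

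The median log2 ratio was 0.38 in the beta ring and 0.26 in the alpha ring, an order that turned when the trend with transcript length and GC content, described below, was removed (0.06 and 0.20). Among the subunits without an active site, Psmb4 was highest by ratio as counted. It had 4489 counts in KS and 5899 in UKS, or 170 and 253 CPM, 1.49-fold higher [1.43 to 1.54] (chromosome 3, 94884093 to 94886961, minus strand). Psmb1 (146 and 188 CPM), Psmb2 (109 and 138 CPM) and Psmb3 (111 and 139 CPM) were 1.25-fold to 1.29-fold higher. On the log2 scale with the trend removed, Psmb4 stood at 0.187 and Psmb1 at 0.205. As counted, the catalytic subunits had the highest median of the assembled subunits, 0.56. Their median with the trend removed was 0.06, below that of the alpha ring (0.20) and of the beta subunits without an active site (0.08). Psmb6, the caspase-like subunit (chromosome 11, 70525367 to 70527858, plus strand), had 111 CPM in the first library and 169 CPM in the second, 1.52-fold higher [1.44 to 1.59]. Psmb5, the chymotrypsin-like subunit that is the main target of proteasome inhibitor drugs (chromosome 14, 54614119 to 54618022, minus strand), stood at 81.6 and 121 CPM, 1.48-fold higher [1.40 to 1.56]. Psmb7, the trypsin-like subunit, stood at 126 and 165 CPM, 1.302-fold higher [1.24 to 1.36]. All 3 catalytic genes were higher in UKS, and as counted the interval of Psmb7 did not overlap those of Psmb5 and Psmb6. With the trend removed the order turned, with Psmb7 at 0.17, Psmb6 at 0.06 and Psmb5 at 0.01.

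The inducible counterparts of these catalytic subunits, which take their place in the immunoproteasome, differed more. Psmb8 (the counterpart of Psmb5) had 21.2 CPM in KS and 97.6 in UKS, Psmb9 (of Psmb6) at 3.52 and 19.5 CPM, and Psmb10 (of Psmb7) at 32.5 and 87.5 CPM. Per kilobase of transcript, Psmb8 made up 12.5% of the Psmb5 and Psmb8 level in KS and 30.9% in UKS, Psmb9 1.83% and 6.39% of its pair, and Psmb10 18.6% and 32.0% of its pair. In UKS the constitutive gene of each pair thus still had the higher transcript level per length. These are shares of transcript, which give no measure of assembled particles.

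The ATPase ring of the base was split as counted. Psmc4 was highest by ratio, with 2965 counts in KS and 3865 in UKS, or 112 and 166 CPM (chromosome 7, 28041707 to 28050101, minus strand; 1.47-fold higher [1.40 to 1.55]), followed by Psmc5 (131 and 174 CPM) and Psmc3 (206 and 261 CPM). Psmc1 (166 and 193 CPM) and Psmc2 (152 and 173 CPM) were 1.16-fold and 1.14-fold higher. Psmc6 had the lowest ratio of all measured members. It had 3579 counts in KS and 1822 in UKS, or 136 and 78.0 CPM, lower by 1.74-fold [1.64 to 1.84], a log2 ratio of −0.79. The gene lies on chromosome 14, 45329788 to 45349705, plus strand. The 6 ATPases sit in 1 ring in equal numbers, and in these libraries 5 of their transcripts were higher in UKS and 1 was lower. Psmc6 also had the most AT-rich transcript of all measured members (37.0% GC), and ratios varied with GC content over all genes.

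The scaffold of the base differed between its large subunits. Psmd2 had the most counts of the members in both libraries, on a transcript of 2961 nt, with 13753 counts in KS and 14581 in UKS, or 521 and 624 CPM (log2 ratio 0.26, fold interval [1.17 to 1.23]). Psmd1, the other large scaffold subunit (chromosome 1, 86064387 to 86139151, plus strand), had 6846 counts in KS and 4365 in UKS, or 259 and 187 CPM, lower by 1.39-fold [1.34 to 1.44]. The ubiquitin receptor Psmd4 stood at 173 and 215 CPM, 1.24-fold higher [1.19 to 1.29]. The intervals of Psmd1 and Psmd2 did not overlap, so counting error alone does not cover the gap between them.

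The lid had the lowest median of the roles, 0.18 over 8 genes, with 5 above 0 and 3 below. With the trend removed 2 lid genes were above 0 and 6 below, and the scaffold and receptor group was lowest by median (−0.09, lid −0.06). Psmd14, the lid deubiquitinase (chromosome 2, 61711694 to 61800376, plus strand), had 3228 counts in KS and 2321 in UKS, or 122 and 99.4 CPM, lower by 1.23-fold [1.17 to 1.298]. Psmd6 (105 and 98.2 CPM, 1.07-fold lower [1.01 to 1.13]) and Psmd12 (103 and 98.3 CPM, 1.05-fold lower [0.991 to 1.11]) were close to equal, and the interval of Psmd12 included equal levels. Psmd7, the partner of Psmd14 in the lid, was on the other side as counted, at 150 and 174 CPM (1.16-fold higher [1.11 to 1.21]). With the trend removed both lay below 0, Psmd7 at −0.008 and Psmd14 at −0.11. As counted, Psmd13 (102 and 129 CPM) and Psmd8 (176 and 220 CPM) were the highest of the lid by ratio, 1.27-fold and 1.25-fold. Psmd3 (204 and 229 CPM) and Psmd11 (109 and 125 CPM) were 1.13-fold and 1.15-fold higher. Of the lid genes Psmd11 was highest with the trend removed, at 0.21. The lid genes thus spread on both sides of equal levels, within 1.5-fold.

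Psmd5, Psmd9 and Psmd10 encode chaperones that help the base assemble and leave the finished particle. All 3 were higher in UKS and had the lowest levels per transcript length among measured members. Psmd10, also known as the oncoprotein gankyrin, was the member with the highest ratio, at 18.4 CPM in KS (486 counts) and 30.8 CPM in UKS (718 counts), 1.67-fold higher [1.49 to 1.88]. It lies on the X chromosome (140948429 to 140956728, minus strand) and is the only X-linked member. The 420 measured X-linked genes had a median log2 ratio of −0.29 as counted and −0.07 with the length and GC trend removed. Psmd9 stood at 38.8 and 50.3 CPM (1.299-fold higher [1.19 to 1.41]) and Psmd5 at 97.4 and 116 CPM (1.19-fold higher [1.13 to 1.26]). Without these chaperones the regulatory median was 0.21.

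The motif letters in front of the genes were compared because of the ratios as counted. Most members were above 0, while Psmc6 was lowest and the catalytic Psmb5 and Psmb6 were among the 5 highest. RefSeq promoter windows (250 bases before to 50 after the start, build GRCm38.p6) were at hand for 29 of the 36 members and for 27025 genes in all, and motifs were searched on both strands. Motif shares of all genes are over these 27025, measured or not, whereas nearly all members were measured. Shares over the measured genes alone were not computed. TGACNNNGC, a core form of the antioxidant response element through which NFE2L1 is known to act on proteasome genes, occurred in 5 member windows (17.2%) and in 14.0% of all genes. Those members were Psmb5, Psmb6, Psmc6, Psmd9 and Psmd12. The letters thus stood before 2 catalytic genes and before the member with the lowest ratio as counted. The bases upstream of the start that lie in no annotated exon are shown for Psmb5, Psmb6 and Psmc6, 5′ to 3′ on the gene's strand, with capitals at TGACNNNGC or its reverse complement and, in Psmc6, also at the ETS letters CCGGAAG.
Psmb5 (chr14:54618023-54618245, minus strand): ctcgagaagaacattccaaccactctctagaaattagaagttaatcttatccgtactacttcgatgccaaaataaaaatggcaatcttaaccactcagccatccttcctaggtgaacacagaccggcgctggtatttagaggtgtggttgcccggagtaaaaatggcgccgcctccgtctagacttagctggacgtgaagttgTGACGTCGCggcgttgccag
Psmb6 (chr11:70525107-70525356, plus strand): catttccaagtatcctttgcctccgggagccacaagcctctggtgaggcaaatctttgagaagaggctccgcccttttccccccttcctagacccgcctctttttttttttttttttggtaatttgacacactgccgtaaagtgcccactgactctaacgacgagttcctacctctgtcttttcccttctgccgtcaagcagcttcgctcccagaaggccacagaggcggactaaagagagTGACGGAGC
Psmc6 (chr14:45329574-45329787, plus strand): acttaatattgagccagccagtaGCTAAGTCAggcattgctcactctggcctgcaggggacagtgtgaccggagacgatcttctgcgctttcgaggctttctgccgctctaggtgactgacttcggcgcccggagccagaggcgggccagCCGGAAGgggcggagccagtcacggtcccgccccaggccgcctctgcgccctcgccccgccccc

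In Psmb5 the match began 47 bases before the RefSeq start and in Psmb6 9 bases before it, while in Psmc6 it lay 227 bases before the start on the reverse strand. Measured members with the letters had log2 ratios from −0.79 to 0.60 (n = 5, median 0.37) and those without from −0.47 to 0.71 (n = 23, median 0.26), so the ranges overlapped. With the length and GC trend, described below, removed, Psmb5 stood at 0.01, Psmb6 at 0.06, Psmc6 at −0.01, Psmd9 at 0.12 and Psmd12 at −0.15. The medians in this paragraph are of ratios as counted, and medians with the trend removed were not computed. The looser form TGANNNNGC, which includes every match of the stricter one, occurred in 17 member windows (58.6%) against 45.0% of all genes. CCGGAAG, the core of sites for ETS factors, occurred in 10 member windows (34.5%) against 9.93% of all genes. Of these 10, 9 belonged to the 17 regulatory particle genes with a window and 1 (Psma6) to the 12 core genes. Their log2 ratios had a median of 0.20 (from −0.79 to 0.35), and those of the 18 measured members without it 0.33 (from −0.47 to 0.71). CCAAT was found in 41.4% of member windows and 41.1% of all genes, the GC box GGGCGG in 62.1% and 38.2%, and AAGATGGC, the letters of a YY1 site, in 10.3% and 3.19%. In Psmc6 a GC box follows directly after the ETS letters. A match of letters is a description of the window and shows no binding.

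Ratios across the whole transcriptome varied with the length and GC content of the transcript, and rank correlations of the same sign were seen over the subunit genes. Over 12997 genes, which are not independent, Spearman's rho of the log2 ratio was 0.52 with GC content and −0.40 with length. Over the 34 measured members, which share both libraries, it was 0.45 and −0.39. Among the 1300 most AT-rich genes (median 39.8% GC) the median log2 ratio was −0.81, close to the −0.79 of Psmc6. Psma2, Psma3 and Psmd10 had ratios above 0 at 39.4%, 40.8% and 42.3% GC. The 5 members with a negative ratio had 37.0% to 47.9% GC, and all lay under the members' median of 49.4%. Core and regulatory transcripts had nearly the same median GC content, 49.2% and 49.6%, but core transcripts were shorter, with a median of 1163 nt against 1887 nt.

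**Figure D3:**
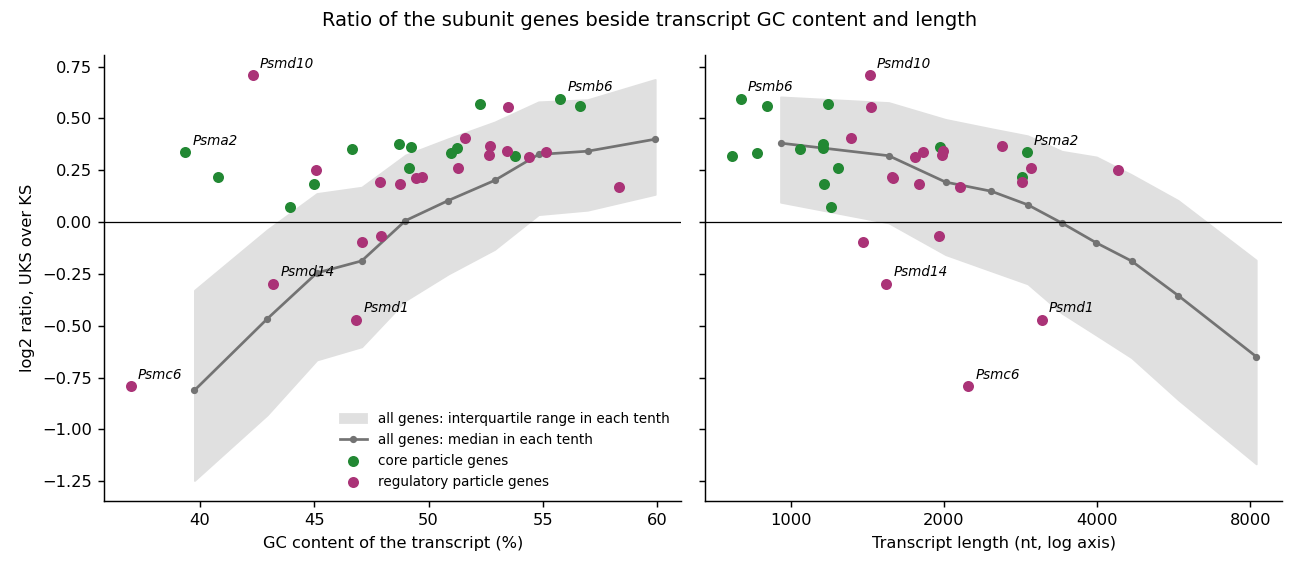
Log2 ratio of UKS over KS against transcript GC content (left, percent) and transcript length (right, nt, log axis); the grey line joins the medians of all genes in 10 equal bins, the band is their interquartile range, and points are the measured core (green) and regulatory (purple) genes. Psmc6 lies near the grey line for GC content, whereas Psmd10 and Psma2 lie above it.

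With that trend subtracted, the excess of the members shrank and the order within the particle was altered. The median of the members was 0.03 and 22 of 34 (64.7%) lay above 0, against 50.5% of all genes on the same scale. Psmc6 moved from −0.79 to −0.01, so its low ratio was the size fitted for a transcript of its length and GC content. Psmd1 then had the lowest value of the members, −0.36, and Psmd14 stood at −0.11. The catalytic subunits Psmb5 and Psmb6 moved from 0.56 and 0.60 to 0.01 and 0.06. The core median was 0.17 and the regulatory median 0.0022, a gap of 0.16 beside 0.11 as counted. The members past 1.5-fold were then 4 higher (Psma2 at 0.98, Psmd10 at 0.95, Psma3 at 0.73 and Psmd5 at 0.61) and none lower. Of the 12997 genes on that scale 1656 were at least 1.5-fold higher and 1586 lower. For Psma2 and Psma3 the longest annotated transcripts had 2911 and 2846 nt, against 1042 to 1239 nt in the rest of the alpha ring. If shorter forms were the ones expressed, the trend subtracted from them was too large. Their best-ranked APPRIS transcripts had the same lengths, so that alternative held no shorter form. The transcript taken for Psmd5 was long as well, 4397 nt. Without Psma2 and Psma3, a choice made after seeing these values, the core median with the trend removed was 0.11. Over all genes the 2-fold calls were 715 higher and 646 lower with the trend removed, against 756 and 1396 as counted. The part of length and GC content in the differences between these lines was not tested, since both the trend and the genotype rest on the same pair of libraries.

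Levels can be compared between genes only per length, and on that scale the subunits of the assembled particle spanned 4.58-fold in KS and 6.11-fold in UKS. In CPM per kilobase of transcript, Psmd2 was highest in KS (176), followed by Psmb3 (145), Psmb4 (144), Psmb6 (140) and Psma4 (140). In UKS Psmb4 (214), Psmb6 (212) and Psmd2 (211) led, at nearly equal levels, followed by Psmb3 (181). The base assembly chaperones were lowest, from 12.9 to 22.1 in KS and from 19.4 to 26.4 in UKS. Psmd11 (38.4), Psma3 (41.6) and Psma2 (42.1) were next in KS, and all 3 values divide by long annotated transcripts. The order was similar in both libraries, with a Spearman's rho of 0.96 over the 34 members, which share their transcript lengths in this comparison.

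Within rings the length-scaled levels spread differently. From the lowest to the highest gene the alpha ring spanned 3.35-fold in KS and 3.27-fold in UKS, the beta ring 1.95-fold and 2.23-fold, and the lid 2.47-fold and 2.53-fold. The ATPase ring spanned 1.87-fold in KS (60.7 for Psmc6 to 113 for Psmc3) and 4.10-fold in UKS (34.9 for Psmc6 to 143 for Psmc3). Without Psmc6 the ATPase span was 1.45-fold and 1.48-fold, so as counted this one gene set the widening. These levels do not have the length and GC trend removed. With it removed the log2 ratios of the ATPases ran from −0.08 to 0.15, with Psmc6 at −0.01. In rank among all 36 members Psmc6 went from 26 to 31 and Psmd1 from 20 to 26, while Psmb5 went from 17 to 10 and Psmc4 from 22 to 15. The log2 ratios with the trend removed were −0.36 for Psmd1, 0.01 for Psmb5 and 0.15 for Psmc4. Counts per kilobase gave the core particle 48.4% of the summed member level in KS and 51.8% in UKS, a shift of the same direction as with plain counts.

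**Figure D4:**
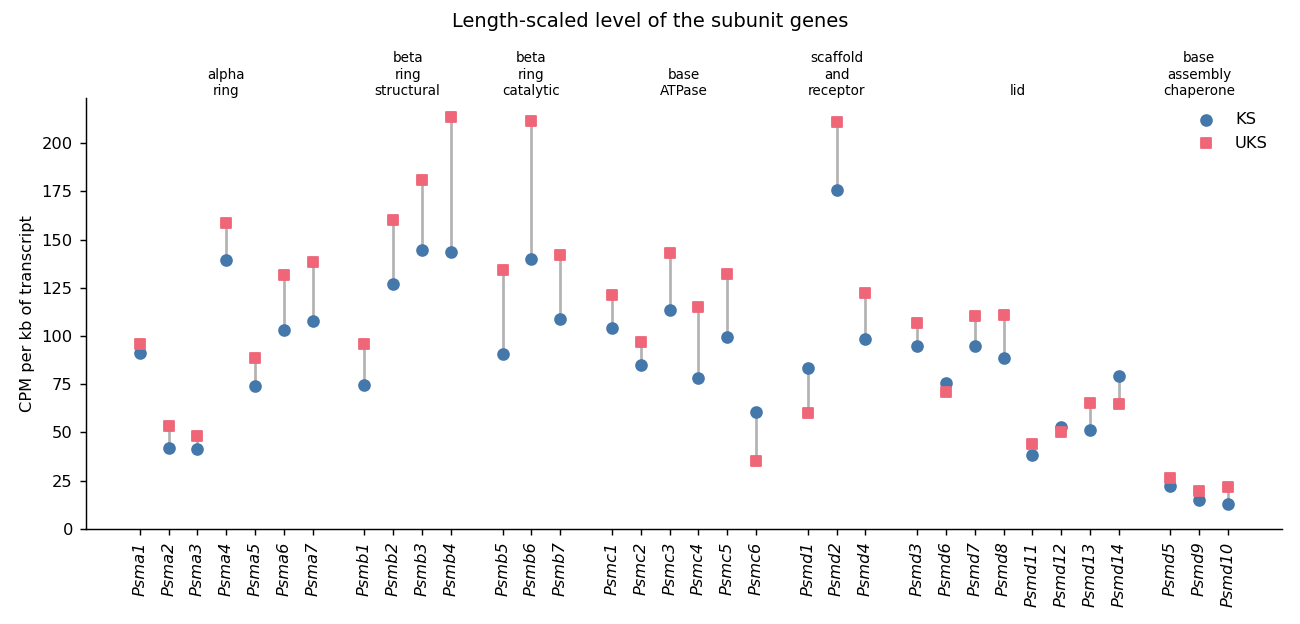
Length-scaled level (CPM per kilobase of the longest protein-coding transcript, linear axis from 0) of each measured subunit gene in KS (circles) and UKS (squares), by role. Psmd2 is highest in KS at 176, Psmb4, Psmb6 and Psmd2 lead in UKS at 211 to 214, and the assembly chaperones lie lowest in both.

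The tissue-restricted members had few counts. Psma8, the alpha subunit of germ cells (chromosome 18, 14706151 to 14762301), had 46 counts in KS and 2 counts in UKS (1.74 and 0.0857 CPM), a KS over UKS ratio of 20.3 [5.32 to 173]. Its mean fell under 1 CPM, so it was not among the measured genes, and its UKS count was below the floor of 3 counts. The germ cell genes Ddx4 and Sycp3 had 2 and 4 counts in KS and 0 in UKS. Psmb11, the catalytic subunit of thymic epithelium (chromosome 14, 54621433 to 54629556), had 1 count in KS and 0 in UKS, both below the floor of 3 counts (0.114 and 0.128 CPM), and Foxn1, which marks that epithelium, had the same counts.

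The other genes of the pathway, in 7 lists, did not share 1 direction. Of 43 genes listed 42 were found and all of these were measured, 5 at least 2-fold higher in UKS and 3 at least 2-fold lower, beside 5.81% and 10.7% of all genes, with a median log2 ratio of 0.05. With the trend removed 3 were 2-fold higher (Psmb8, Psmb9 and Sem1) and 1 was 2-fold lower (Maff). Of the 12997 genes on that scale 715 were 2-fold higher and 646 lower. Psmb10 went from 1.40 to 0.89 on the log2 scale. The activators differed in opposite ways: Psme1 (85.6 and 176 CPM, 2.06-fold higher) and Psme2 (75.1 and 165 CPM, 2.20-fold higher), which form the interferon-inducible cap, against Psme4 (109 and 39.4 CPM, log2 ratio −1.45), the large nuclear activator. Psme3 (119 and 133 CPM) and the inhibitor Psmf1 (36.4 and 42.0 CPM) had log2 ratios of 0.16 and 0.20. With the trend removed Psme1 and Psme2 stood at 0.55 and 0.70 and Psme4 at −0.80, so none was past 2-fold.

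All 5 genes for core assembly chaperones were higher in UKS, with a median of 0.47. Pomp, which matures the beta subunits, had 1375 counts in KS and 2006 in UKS, or 52.1 and 85.9 CPM (1.65-fold higher [1.54 to 1.77]) and had a log2 ratio of 0.71 as counted. With the trend removed it was 0.76 by the longest transcript (3850 nt) and 0.56, under the 1.5-fold size, by the best-ranked APPRIS transcript (1579 nt), a choice made after seeing the data. Psmg4 (9.13 and 14.4 CPM), Psmg3 (13.1 and 18.5 CPM) and Psmg1 (19.5 and 25.9 CPM) were 1.58-fold, 1.42-fold and 1.32-fold higher as counted, but lay between −0.07 and 0.07 with the trend removed. Psmg2 (21.2 and 22.9 CPM) had an interval of the fold [0.956 to 1.22] that included equal levels.

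Among 7 regulatory particle proteins with other names and associated enzymes, 3 were above 0 and 4 below. The clamp-like factor Ecpas had 5142 counts in KS and 2133 in UKS, or 195 and 91.4 CPM, a log2 ratio of −1.08 that was −0.41 with the trend removed. The proteasome-bound deubiquitinases Uchl5 (41.2 and 28.3 CPM) and Usp14 (131 and 91.5 CPM) stood at −0.53 and −0.52, and at 0.01 and 0.33 with the trend removed. The lid subunit Sem1 was higher, at 55.0 and 73.7 CPM, a log2 ratio of 0.42 that became 1.08 once the trend was subtracted. Of 7 genes for transcription factors that control subunit genes and their processing enzymes, Maff alone was past 1.5-fold. Nfe2l1, named here after its value was seen, stood at 310 CPM in both libraries (fold interval [0.969 to 1.03]), Nfe2l2 at 179 and 160 CPM, the NFE2L1 protease gene Ddi2 at 101 and 88.1 CPM, Mafg at 123 and 129 CPM, and Maff at 34.5 and 22.5 CPM, a log2 ratio of −0.60 that was −1.06 with the trend removed.

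Genes that deliver substrates were close to equal or lower. Of 9 shuttle factor and p97 genes the median was 0.03 as counted and none was past 1.5-fold. Ubqln2 was lowest at −0.46 (103 and 74.5 CPM). Rad23b stood at 459 and 389 CPM, Ubqln1 at 176 and 157 CPM, and Vcp, the gene for p97, at 765 and 682 CPM. Once the trend was subtracted, the median of these 9 genes was −0.20, with 1 above 0 and 8 below. Of 6 genes for ubiquitin and its activating enzymes, Ubb was 1.72-fold higher (1021 and 1754 CPM) and Rps27a 1.25-fold higher (391 and 491 CPM). Their log2 ratios went from 0.78 and 0.33 as counted to 0.36 and 0.05 with the trend removed. Uba6, the activating enzyme with the narrower range of partners, had the largest difference of these lists downward, at 60.8 and 15.5 CPM, a log2 ratio of −1.90 that was −0.72 with the trend removed.

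**Figure D5:**
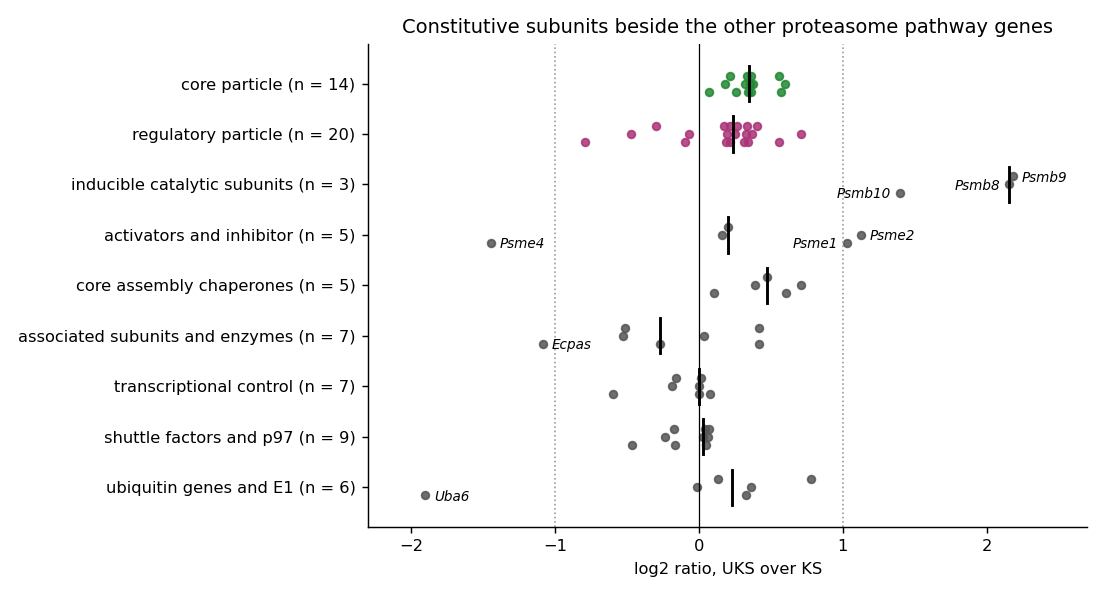
Log2 ratio of UKS over KS for the measured core and regulatory particle genes and for the 7 other pathway lists; each point is a gene, black bars are list medians, dotted lines mark 2-fold, and genes past 2-fold are named. The constitutive subunits stay within 2-fold, while Psmb8, Psmb9, Psmb10, Psme1 and Psme2 lie above it and Psme4, Ecpas and Uba6 below it.

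Some values are less certain than their counts imply. Deposited counts that were not whole occurred in 7 members. Psmc3, Psmb7 and Psmd13 share exon bases with the expressed genes Slc39a13, Nek6 and Sirt3 on the opposite strand, and the sources used here do not say whether counting used strand.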

How the data were processed

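RNA of 2 libraries was compared, KS and UKS, grouped by their sample titles. RNA was isolated with TRIzol for TruSeq RNA libraries, per the labels' protocols. The submitters' processing notes list HISAT2, StringTie and GRCm38.p5 and give no role for them. The authors deposited expected counts for each gene, without depth scaling, and these were rounded to whole numbers. Which program counted, with which annotation and strand setting, is not given in the sources used here. TMM factors came from edgeR 4.0.16 (R 4.3.3) and size factors for an alternative from DESeq2 1.42.0. Log2 ratios had a pseudocount of 1 CPM and a minimum mean of 1 CPM, and 1.5-fold and 2-fold were sizes, not tests. Exact binomial intervals used scipy 1.17.1. Coordinates, length and GC content were those of GENCODE M21 on GRCm38, which held 51633 of the 51912 identifiers, with the longest protein-coding transcript taken per gene. For the trend, ratios of measured non-member genes were regressed on log2 length and GC content, each to the third power, with Tukey's biweight as robust weighting (statsmodels 0.14.6). A true difference tied to length or GC content would be subtracted too. The steps were tested on simulated data. All members were named, with up to 4 genes of each other list by absolute ratio, or the whole list where it had 5 or fewer. Members and lists were chosen with earlier results of these data known. A further engineered alteration that both lines carry, and 2 listed genes, are not reported here.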

Additional observations from a re-analysis of the deposited data

How the results depend on the processing

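No paired analysis was possible because each group has 1 library, and no library could be left out. As counted, the core median was 0.35, the regulatory median 0.23 and their gap 0.11. The gap cannot change under another scaling or a minimum of 5 CPM, and under the 8 alternatives that could change it the gap ran from 0.10 to 0.19. With the length and GC trend removed the medians were 0.17 and 0.0022, and with the best-ranked APPRIS transcript, added after seeing the data, 0.20 and 0.032. With the trend removed by the longest transcript and without Psma2 and Psma3, also added later, the core median was 0.11. The mean over members gave 0.16 for the regulatory genes and a gap of 0.19. Against 2 members at least 1.5-fold higher, 1 was found with DESeq2 size factors, with centring on the median gene and with a pseudocount of 5 CPM, and 4 with the trend removed, where 0 were 1.5-fold lower in place of 1. Without a filter on low values Psma8 joined, giving 2 members 1.5-fold lower and 1 at least 2-fold lower, and 10514 genes had a ratio above 0 against 6756. With 5 CPM as pseudocount 1293 genes were 1.5-fold higher (2001 as reported), 412 were 2-fold higher (756) and 836 were 2-fold lower (1396). With the trend removed 1656 were 1.5-fold higher (2001), 1586 were 1.5-fold lower (2745) and 646 were 2-fold lower (1396). The core share of member counts in KS and UKS was 36.6% and 40.1% for the assembled particle alone and 48.4% and 51.8% per kilobase, beside 35.5% and 38.7%. Removing the trend turned 7 members from above to below 0 by the longest transcript. By the APPRIS transcript 7 changed sign: Psmc6 (to 0.005) and Psmd12 to above 0, and Psmb3, Psmc3, Psmd3, Psmd4 and Psmd8 to below. Scalings, pseudocounts and filters left the sign of all 34 measured members as it was. The lower calls under a larger pseudocount follow from its construction, and the cause of the other shifts was not tested. Depth limits Psma8 and Psmb11 alone, since other members had at least 486 counts.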
